A study of Homo sapiens with 12 samples.

Results

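The genes described are 54 translation factors of human cells, taken by symbol from a list of initiation and elongation factors, their inhibitors and their kinases, out of 43481 genes with summed transcript counts. All 54 were among the 15263 genes that passed the filter on low counts and were tested. They fall into 6 role groups: 7 genes of eIF2 and its exchange factor eIF2B, 3 eIF2 kinases, 12 subunits of eIF3, 16 genes of eIF4 with its binding proteins and inhibitors, 9 factors of start codon selection and subunit joining, and 7 elongation genes. Poly-A RNA was sequenced from RPE-1 cells, an immortalised human line derived from retinal pigment epithelium, in 12 libraries, 3 for each of 4 groups. All cells had been kept for 24 h without foetal calf serum (FCS) and glucose. In 3 groups both were then returned for 4 h (10% FCS, 5 g/l glucose): with 100 µM dimethyl amiloride (DMA), which blocks Na+/H+ exchange, with 10 µM C646, which inhibits the acetyltransferases p300 and CBP, or with the DMSO solvent alone. The fourth group was taken starved, and its labels name no solvent. The line is the same in every group, and nothing in the labels says whether the 3 libraries of a group came from separate cultures, so p-values measure the spread between these libraries, which may be technical.

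Translation of most mRNAs starts when eIF4E binds the cap at the start of the mRNA and, with the scaffold eIF4G and the RNA helicase eIF4A, recruits a small ribosomal subunit that carries eIF3, eIF1, eIF1A, eIF5 and the initiator tRNA bound to eIF2. The subunit scans to a start codon, eIF2 leaves with GDP, eIF5B joins the large subunit, and eIF2B recharges eIF2 with GTP. In starved cells kinases that phosphorylate eIF2 slow this recharging, and the 4E-binding proteins, released from inhibition by the growth kinase mTORC1, hold eIF4E away from eIF4G. Elongation then runs on eEF1A, which brings each aminoacyl-tRNA, and eEF2, which moves the ribosome along. The mRNAs of EEF1A1, EEF2, PABPC1 and EIF4B belong to the class with a terminal oligopyrimidine start, whose translation is known to depend on mTORC1.

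The libraries held 14910516 to 28968510 expected counts (the deposited estimates of reads per transcript). Of these counts, spike-in RNA included, genes of the mitochondrial genome took 1.67% to 2.38% with DMA and 2.12% to 2.34% with C646. They took 2.48% to 3.24% with solvent and 2.39% to 4.14% in starved cells. The epithelial genes KRT8 and KRT18 and the mesenchymal gene VIM were abundant in all 4 groups, with group means of at least 301 TPM. Of 6 pigment epithelium markers, the visual cycle genes RPE65 and RLBP1 and the pigment enzyme gene TYR had group means of at most 0.201 TPM, BEST1 and PMEL lay between 0.448 and 1.08 TPM, and the transcription factor MITF had 10.00 TPM with DMA, 10.6 TPM with C646, 9.93 TPM with solvent and 19.7 TPM in starved cells. Of 7 leukocyte and erythroid markers none had a group mean above 1.04 TPM. Calls over all genes in the inhibitor comparisons varied with the library left out, to unlike degrees. For DMA against solvent 267 genes were called. There were 8 without solvent library 1, 1 without DMA library 2, 232 without solvent library 3 and 286 without DMA library 1. For C646 against solvent 185 were called, and 24 to 135 without 1 library. Between DMA and C646 441 were called, and 180 to 316 without 1 library. Such fits also have fewer libraries to estimate the spread. Values without single libraries therefore stand beside the inhibitor calls made without a replicate block.

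Levels of different genes were compared in TPM, the library-scaled transcript abundance corrected for length. The 54 genes together took 30842, 33629 and 34208 TPM with DMA, 30922, 32831 and 35526 TPM with C646, 35074, 32461 and 34546 TPM with solvent and 41142, 40305 and 43079.6 TPM in starved cells. Each starved library was above each refed library, and the 3 refed groups overlapped. The largest share of that sum was EEF1A1, the tRNA-delivering elongation factor, with 14848 ± 1024 TPM with solvent and 19826 ± 1619.9 TPM in starved cells (mean ± SD, n = 3 each). By the mean of all libraries, the most abundant gene of the eIF4 group was PABPC1, which coats poly-A tails, with 2278 ± 312 TPM with solvent against 2968 ± 179.6 TPM starved. Among start codon factors it was EIF1, which keeps the scanning ribosome open, with 919 ± 189 TPM with solvent against 1490.3 ± 48.6 TPM starved. Among eIF3 subunits it was EIF3L, with 645.7 ± 42.7 TPM with solvent against 730.4 ± 53.0 TPM starved. For eIF2 the order differed between groups: the beta subunit EIF2S2 had 112 ± 8.11 TPM with solvent against 157 ± 15.1 TPM starved, and the alpha subunit EIF2S1 had 149 ± 21.2 TPM with solvent against 83.2 ± 5.93 TPM starved. The mean of EIF2S1 was the higher of the pair with DMA, C646 and solvent, and that of EIF2S2 in starved cells. Among the eIF2 kinases it was EIF2AK1, the haem-sensing kinase HRI, with 65.6 ± 6.45 TPM with solvent against 67.9 ± 3.96 TPM starved. At the low end the cap-binding paralog EIF4E3 had 0.487 ± 0.135 TPM with solvent and 0.801 ± 0.402 TPM starved, so its fold changes rest on few reads. EIF3L is an uncertain gene: another gene overlaps over 20% of its exons or shares over 20% of its sequence, and whether counting used the strand is not known. Its coding transcript EIF3L-214 took 7.30% to 17.4% of its counts per library. The transcripts EIF3L-212 and EIF3L-213, annotated with retained introns, took 24.3% to 39.5% and 31.5% to 44.2%. The other uncertain members are EEF1G, EIF4A1, EIF5A, PDCD4, EEF1D, EIF2B2 and EIF4E2.

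**Figure D1:**
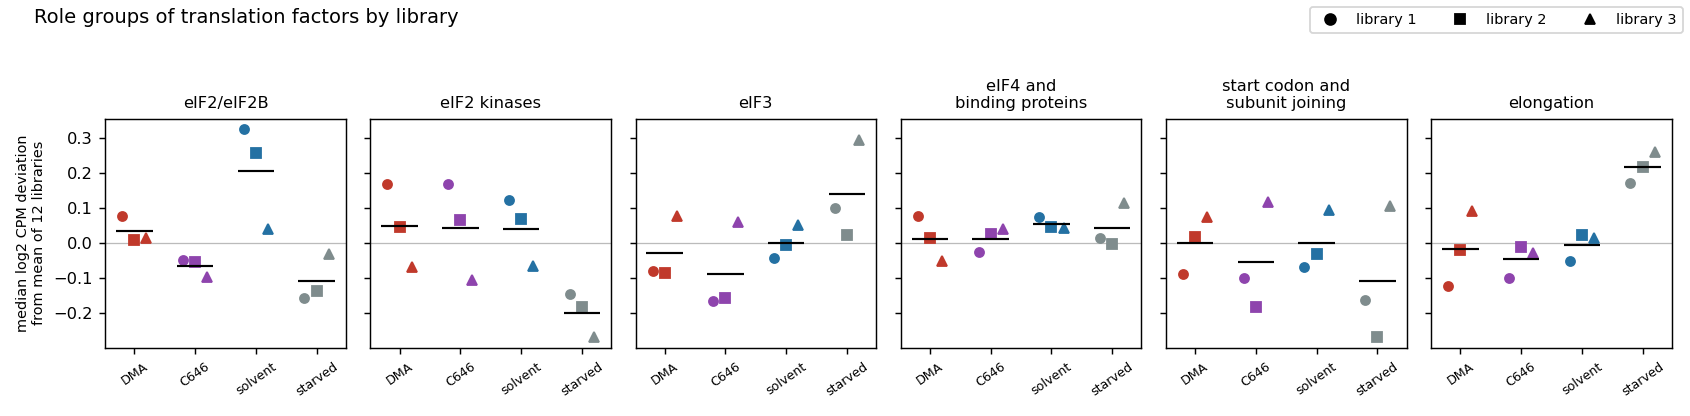
For each of the 6 role groups, each point is the median over its genes of the log2 CPM deviation from the mean of the 12 libraries, in 1 library (marker shape gives the library number), and bars are means of 3 libraries for DMA, C646, solvent and starved cells. The elongation genes lay at 0.17 to 0.26 in starved cells, above every refed library, while the eIF2 kinases lay lowest there and eIF2/eIF2B lay lowest in starved cells and with C646.

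Solvent cells had 4 h of serum and glucose that starved cells did not have. They also had DMSO, which the starved labels do not name, and 4 h more in culture. These differences cannot be told apart, and refeeding stands for all of them here. Refeeding split the translation factors: the cap-binding protein EIF4E, the subunit-joining GTPase EIF5B and the eIF2 subunit EIF2S1 rose, and the helicase cofactor EIF4B, the eIF4A inhibitor PDCD4 and the elongation factor EEF2 fell. Of 54 members 27 were called, 14 higher and 13 lower, in a comparison in which 24.3% of all genes tested were called (12.6% higher and 11.7% lower). The median log2 fold change was -0.0074 over the members and 0.0032 over all genes tested. Libraries of both groups did not overlap for 17 members that were higher and 18 that were lower with solvent, against 40.0% of all genes (20.5% higher and 19.5% lower).

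These changes are shares of each library. With scaling to spike-in RNA, whose amount the labels do not give, the median of all genes shifted by 0.60 (log2), 16 members were called, all of them higher (22.4% of all genes called, 21.1% higher), and the 14 higher calls were among these 16. All 13 lower calls ended there, and 6 of those genes measured above 0, which is given beside each. Spike-in RNA took 1.06, 0.527 and 0.663% of the counts in solvent libraries 1, 2 and 3, against 1.28, 0.959 and 0.872% in starved cells. These shares overlapped, and their spread within groups enters the spike-in fits. A call that ended there therefore does not show that the fall was absent. In bulk RNA less of a transcript per cell and fewer cells carrying it cannot be told apart. Whichever 1 of the 6 libraries was left out, 16 of the 27 members stayed past the threshold.

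**Figure D2:**
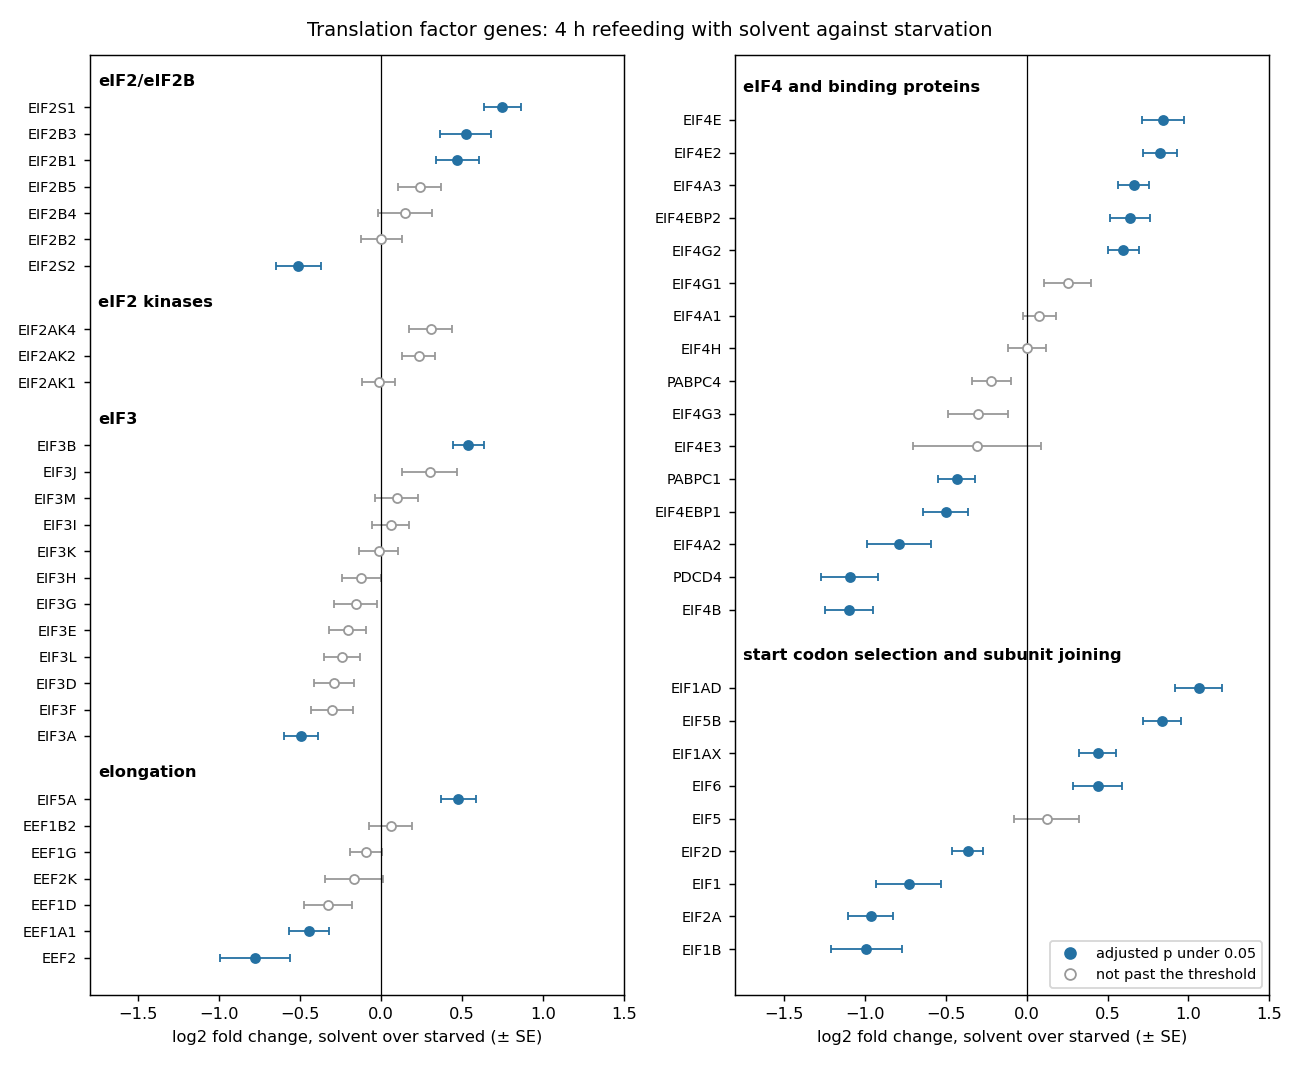
Each point is the log2 fold change of a gene, solvent over starved, with its SE as a bar, in the role groups, and filled points are past the adjusted p threshold of 0.05. All role groups with called genes held members on both sides of 0, and the eIF2 kinases held none that was called.

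In eIF2 and eIF2B, 3 of 7 genes rose and 1 fell, with a median log2 fold change of 0.24. EIF2S1, the alpha subunit that the eIF2 kinases phosphorylate, measured 179, 150.3 and 163 CPM (library-scaled counts, with TMM factors) in solvent libraries 1, 2 and 3, against 91.7, 89.6 and 113 CPM in starved cells. Every solvent library was higher, and the log2 fold change was 0.75 ± 0.11 (SE, adjusted p = 0.000497). Its partner EIF2S2, the beta subunit, went the other way, with 211, 208 and 235 CPM with solvent against 323, 272 and 336 CPM starved. No libraries overlapped, and EIF2S2 fell by 0.51 ± 0.14 (adjusted p = 0.0168), though it measured 0.085 with spike-in scaling. The exchange factor subunits EIF2B3 (0.52 ± 0.16, adjusted p = 0.0277) and EIF2B1 (0.47 ± 0.13, adjusted p = 0.0205) rose, and the catalytic subunit EIF2B5 (0.24), EIF2B4 (0.15) and EIF2B2 (0.0021) did not pass. The call of EIF2S2 ended without starved library 1 or 3, and also without solvent library 1 or 2 (adjusted p = 0.0543, 0.0555, 0.0548 and 0.0615). EIF2B3 and EIF2B1 did so without starved library 1 (0.0629 and 0.0548), starved library 2 (0.125 and 0.101), solvent library 1 (0.119 and 0.0751) or solvent library 2 (0.0547 and 0.0597).

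The 3 eIF2 kinases did not pass by edgeR at the threshold on all genes, and DESeq2 called 0. By edgeR 2 of 3 had an unadjusted p under 0.05, as did 5542 of all 15263 genes tested. EIF2AK1, the most abundant, had 139.8, 135 and 122 CPM with solvent and 128, 128 and 145 CPM starved, and the groups overlapped (-0.016 ± 0.10). EIF2AK4, the kinase GCN2 that senses uncharged tRNA, had 164, 153 and 146 CPM with solvent and 127, 127 and 119.9 CPM starved. Its groups did not overlap, with a log2 fold change of 0.31 ± 0.13 (adjusted p = 0.113). EIF2AK2, the double-stranded RNA sensor PKR, measured 0.23 ± 0.10 (adjusted p = 0.112). With spike-in scaling EIF2AK4 passed (0.89, adjusted p = 0.0405).

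The eIF3 complex, which scaffolds the small subunit, showed few calls, 1 higher and 1 lower of 12, with a median of -0.14. EIF3B, a core subunit, rose by 0.54 ± 0.097 (adjusted p = 0.00163), with 282, 251 and 261 CPM with solvent against 178, 182 and 185 CPM starved. EIF3A, the largest core subunit, fell by 0.49 ± 0.10 (adjusted p = 0.00413) and measured 0.067 with spike-in scaling. It had 703, 607 and 687 CPM with solvent against 884, 1008 and 922 CPM starved. The 2 called subunits thus moved apart, each without overlap between groups. The uncertain EIF3L had 419, 425 and 433 CPM with solvent and 489, 475 and 548 CPM starved, lower in every solvent library (-0.24 ± 0.11, adjusted p = 0.127). The other 9 subunits ran from EIF3F at -0.30 to EIF3J, a loosely bound subunit, at 0.30, and none passed.

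Among the 16 genes of eIF4 and its binding proteins, 5 rose and 5 fell, and the paralogs EIF4EBP1 and EIF4EBP2 were called in opposite directions. EIF4E, the cap-binding protein (chromosome 4, 98871684 to 98930637, minus strand, GRCh38), and EIF4B, an RNA-binding cofactor of the helicase eIF4A (chromosome 12, 53006158 to 53042209, plus strand), had the largest called changes of the group, up and down. Their 250 bases before the RefSeq gene start (GRCh38.p14) are shown because both hold the E-box CACGTG, the site that MYC and related factors are known to bind, here in capitals. The EIF4E stretch is chr4:98929134-98929383 on the minus strand and the EIF4B stretch is chr12:53006206-53006455 on the plus strand. Both lie inside the GENCODE genes, which start farther upstream, and EIF4E holds 2 E-boxes.
EIF4E: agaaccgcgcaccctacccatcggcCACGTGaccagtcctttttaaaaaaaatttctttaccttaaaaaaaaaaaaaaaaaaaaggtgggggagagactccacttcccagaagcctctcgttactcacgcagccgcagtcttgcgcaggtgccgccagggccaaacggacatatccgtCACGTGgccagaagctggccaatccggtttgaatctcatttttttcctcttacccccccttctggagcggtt
EIF4B: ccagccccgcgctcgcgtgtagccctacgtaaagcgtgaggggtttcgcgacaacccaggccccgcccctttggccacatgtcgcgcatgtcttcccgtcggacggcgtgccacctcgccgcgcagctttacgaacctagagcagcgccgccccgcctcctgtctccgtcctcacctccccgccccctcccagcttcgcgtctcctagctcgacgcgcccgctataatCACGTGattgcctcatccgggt
EIF4E measured 146, 115 and 109 CPM with solvent against 66.6, 64.9 and 74.7 CPM in starved cells. All solvent libraries were higher, and EIF4E rose by 0.84 ± 0.13 (adjusted p = 0.000571). EIF4B measured 672, 716 and 755 CPM with solvent against 1465, 1516 and 1603 CPM starved. Its groups lay far apart, and EIF4B fell by 1.10 ± 0.15 (adjusted p = 0.000261), while scaling to spike-in RNA left -0.50 and no call (adjusted p = 0.284).

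The cap-binding homolog EIF4E2, which competes with EIF4E on some mRNAs, measured 102, 84.9 and 95.6 CPM with solvent against 50.5, 50.3 and 59.1 CPM starved. It rose by 0.82 ± 0.11 (adjusted p = 0.000174). Antisense genes cover 24.2% of its exons, which makes the value uncertain. The 2 binding proteins that sequester eIF4E moved in opposite directions. EIF4EBP2 had 211, 169 and 171 CPM with solvent against 121, 108 and 124 CPM starved, and rose by 0.64 ± 0.13 (adjusted p = 0.00287). EIF4EBP1 had 70.5, 68.1 and 87.6 CPM with solvent against 123, 101 and 95.7 CPM starved, and fell by 0.50 ± 0.14 (adjusted p = 0.0197), or measured 0.12 with spike-in scaling. Neither gene's groups overlapped, but EIF4EBP1 missed the threshold without starved library 1 (adjusted p = 0.0960) and without solvent library 1 or 2 (0.0720 and 0.0812). EIF4EBP1-202, a transcript with no coding annotation, took 80.9% to 93.3% of the counts of EIF4EBP1 per library.

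The helicase paralogs also differed in their values, though the difference between them was not tested. EIF4A1 had 1336, 1304 and 1321 CPM with solvent and 1119, 1239 and 1391 CPM starved, with overlap (0.079 ± 0.10, adjusted p = 0.621). Other genes hold 44.8% of its sequence, which makes it uncertain. EIF4A2 had 506, 645 and 349.7 CPM with solvent against 756, 919 and 914 CPM starved. It fell by 0.79 ± 0.20 (adjusted p = 0.0117) without overlap, but scaled to spike-in RNA it measured -0.18 and was not called. The counts of EIF4A2 include EIF4A2-207, a transcript that skips exon 4. That transcript took 26.4, 26.6 and 38.2% of them in starved cells, against 11.2, 7.73 and 11.1% with solvent. Whether EIF4A2 fell without it was not tested. EIF4A3, the related helicase of the exon junction complex, had 82.2, 76.6 and 73.3 CPM with solvent against 48.1, 49.2 and 49.5 CPM starved and rose by 0.66 ± 0.094 (adjusted p = 0.000339). PDCD4, which holds eIF4A inactive, had 44.8, 43.7 and 55.8 CPM with solvent against 119, 89.3 and 99.3 CPM starved. It fell by 1.09 ± 0.18 (adjusted p = 0.000767) and lost its call with spike-in scaling (-0.48). Other genes cover 29.5% of its exons, which makes it uncertain.

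EIF4G2, a scaffold that lacks the binding site for eIF4E, had 1486, 1487 and 1361 CPM with solvent against 951, 945 and 968 CPM starved, and rose by 0.60 ± 0.097 (adjusted p = 0.000848). The scaffolds EIF4G1 (0.25) and EIF4G3 (-0.30) and the helicase cofactor EIF4H (0.00052 ± 0.12) did not pass. PABPC1 had 1780.1, 1581 and 1807 CPM with solvent against 2363, 2126 and 2479 CPM starved and fell by 0.43 ± 0.12 (adjusted p = 0.0157), or measured 0.14 with spike-in scaling. Its paralog PABPC4 had 372, 433 and 432 CPM with solvent and 439, 507 and 493 CPM starved, lower without overlap but not past the threshold (-0.22 ± 0.12, adjusted p = 0.211). PABPC1 missed the threshold without solvent library 2 (adjusted p = 0.0717).

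**Figure D3:**
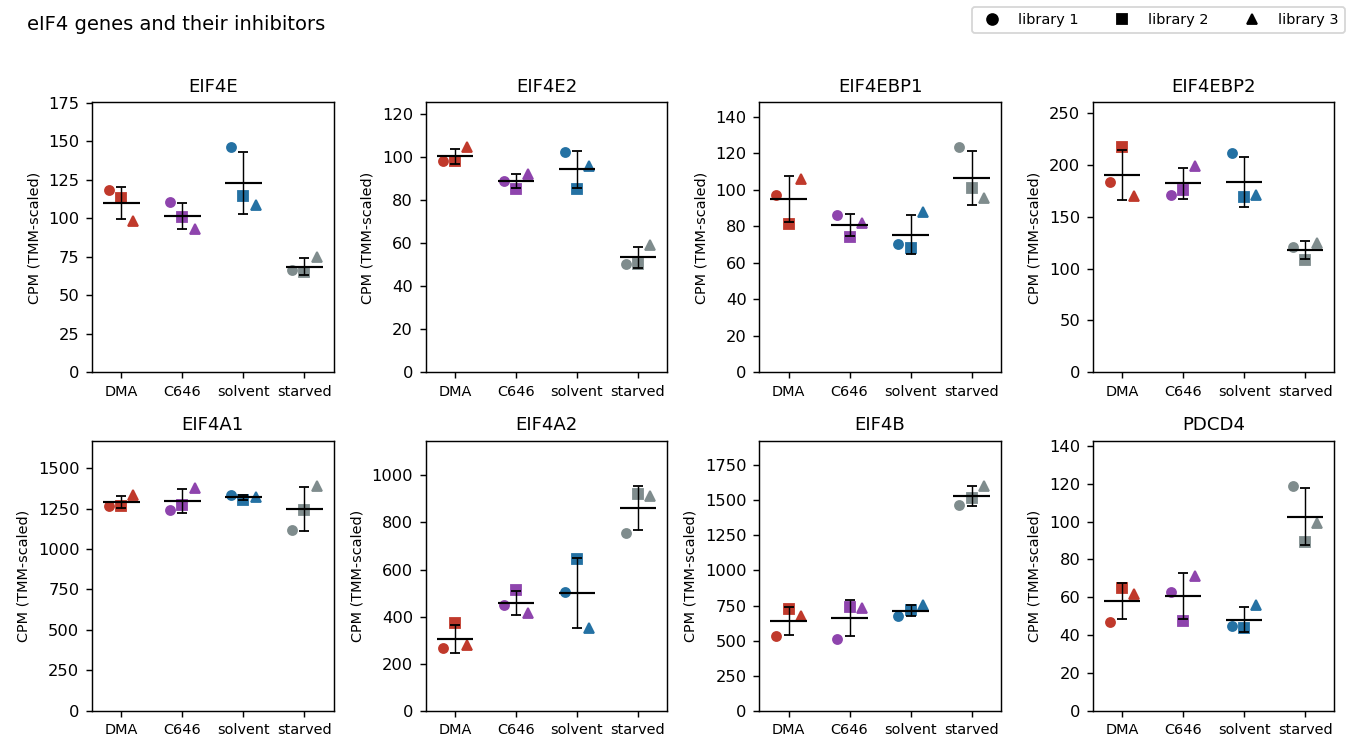
TMM-scaled CPM of 8 eIF4 genes and inhibitors in each library for DMA, C646, solvent and starved cells (points, with marker shape for the library number), with the mean and SD of 3 libraries. EIF4B, PDCD4 and EIF4A2 sat highest in the starved libraries and EIF4E, EIF4E2 and EIF4EBP2 lowest, while EIF4A1 lay in the same range in all 4 groups.

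Of the 54 members, 43 matched a RefSeq promoter (GRCh38.p14), read from 250 bases before to 50 after the gene start. The E-box CACGTG, which reads the same on both strands, was in 11 of the 43 (25.6%), against 10.1% of 10794 tested genes with a promoter and 7.43% of all 27305 promoters. It was in 3 of 14 members that rose, 2 of 9 that fell and 6 of 20 not called. The other members called with an E-box were EIF4A3 and EIF2B3, which rose, and EIF1B, which fell, and the 100 bases around their E-boxes, in capitals, are shown to set them beside the stretches of EIF4E and EIF4B. They lie at chr17:80147197-80147296 on the minus strand, chr1:44986722-44986821 on the minus strand and chr3:40309606-40309705 on the plus strand, with the E-box starting 121, 179 and 54 bases before the gene start.
EIF4A3: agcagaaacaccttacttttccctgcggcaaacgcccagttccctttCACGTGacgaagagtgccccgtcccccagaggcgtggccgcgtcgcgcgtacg
EIF2B3: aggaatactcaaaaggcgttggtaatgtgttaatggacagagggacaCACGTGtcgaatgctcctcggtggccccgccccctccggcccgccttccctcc
EIF1B: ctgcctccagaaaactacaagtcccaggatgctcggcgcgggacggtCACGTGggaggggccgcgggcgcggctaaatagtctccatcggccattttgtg
The site TGATGNAA, which the amino acid response factor ATF4 is known to bind, was in 0 of 43 members on either strand, against 1.75% of the promoters of tested genes and 3.67% of all promoters. The ETS motif CCGGAAGT was in 8 of 43 (18.6%), against 8.56% of the promoters of tested genes and 4.43% of all promoters, with 4 of 14 that rose, 1 of 9 that fell and 3 of 20 not called. These are matches of letters in a window, and no member held more than 1 of the 3 motifs, so matches of different motifs did not overlap. No promoter entry was found for EEF1D, EIF2AK1, EIF2S2, EIF3A, EIF3E, EIF3G, EIF3H, EIF3L, EIF4EBP1, PABPC1 and PABPC4, so these were not searched for motifs.

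The factors of start codon selection and subunit joining held the highest share of calls, 8 of 9, with 4 higher and 4 lower. EIF1AD, which carries a domain like that of eIF1A, had 42.7, 37.8 and 42.4 CPM with solvent against 19.1, 17.6 and 22.2 CPM starved. It rose by 1.06 ± 0.14 (adjusted p = 0.000244), the largest rise of the 54. EIF5B (chromosome 2, 99337353 to 99401326, plus strand), the GTPase that joins the subunits, had 269, 221 and 197 CPM with solvent against 122, 129 and 134 CPM starved and rose by 0.84 ± 0.12 (adjusted p = 0.000301). EIF1AX, the eIF1A that holds the scanning complex, rose by 0.44 ± 0.11 (adjusted p = 0.0130), and EIF6, which keeps the large subunit from joining early, rose by 0.44 ± 0.15 (adjusted p = 0.0478). The call of EIF1AX ended when starved library 2 (0.0662) or solvent library 1 was left out (0.0580). That of EIF6 ended without starved library 1, 2 or 3 (0.0943, 0.132 and 0.0925) or solvent library 2 or 3 (0.128 and 0.158). EIF6-206, a transcript annotated as a target of mRNA decay, took 52.8% to 79.1% of the counts of EIF6 per library.

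The 2 eIF1 genes fell together. EIF1 had 456, 566 and 704 CPM with solvent against 883, 955 and 1024 CPM starved, and its paralog EIF1B had 33.3, 31.3 and 42.1 CPM with solvent against 69.1, 68.2 and 74.6 CPM starved. No libraries overlapped, and they fell by 0.73 ± 0.20 and 0.99 ± 0.22 (adjusted p = 0.0178 and 0.00599), with -0.11 and -0.41 and no calls under spike-in scaling. EIF2A, which can carry the initiator tRNA without eIF2, had 129, 112 and 138 CPM with solvent against 232, 229 and 280.0 CPM starved and fell by 0.96 ± 0.14 (adjusted p = 0.000361, and -0.40 with no call under spike-in scaling). EIF2D, which delivers tRNA without GTP, fell by 0.36 ± 0.098 (adjusted p = 0.0157), or measured 0.22 with spike-in scaling. EIF5, which triggers GTP hydrolysis on eIF2, did not pass (0.12 ± 0.20). The call of EIF1 ended without starved library 2 or 3 (0.0501 and 0.0506) or solvent library 1 or 2 (0.0736 and 0.0538), and that of EIF2D without starved library 3 (0.0528) or solvent library 3 (0.0667). EIF1-201, a transcript with no coding annotation, took 38.6% to 53.4% of the counts of EIF1 per library.

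Of the 7 elongation genes 1 rose and 2 fell. EEF1A1 had 18651, 17755 and 18258 CPM with solvent against 23005, 22459 and 28858 CPM starved and fell by 0.44 ± 0.12 (adjusted p = 0.0186), or measured 0.13 with spike-in scaling. EEF2, the translocation factor, had 1493, 2179.9 and 3162 CPM with solvent against 4148, 4054 and 3526 CPM starved. Its solvent libraries were widely spread, all below the starved ones, and it fell by 0.78 ± 0.22 (adjusted p = 0.0202), with -0.12 and no call under spike-in scaling. EIF5A, the hypusine-bearing factor that helps ribosomes through difficult stretches, had 735, 724 and 738 CPM with solvent against 514, 529 and 535 CPM starved. It rose by 0.48 ± 0.11 (adjusted p = 0.00629). Since EIF5AL1 holds 21.3% of its sequence, the value is uncertain. The exchange subunits EEF1B2 (0.059), EEF1D (-0.33) and EEF1G (-0.094) and the eEF2 kinase EEF2K (-0.17) did not pass. The call of EEF1A1 ended without starved library 3 (0.0588), or without solvent library 2 or 3 (0.0649 and 0.0507), and that of EEF2 without starved library 1 or 2 (0.0627 and 0.0625) or solvent library 1 or 2 (0.0569 and 0.0643).

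The deposited tables list transcripts, so the division of a gene's counts among its transcripts was tested as well, in 51 members with at least 2 transcripts kept. Between solvent and starved cells 3 of 51 were called (EIF4A2, EIF3B and EIF3J), with 1.58% of 10896 genes called. EIF4A2 (chromosome 3, 186783205 to 186789900, plus strand, GRCh38) had the lowest adjusted p (0.0135), and its 1 transcript past the threshold was EIF4A2-207, annotated as a target of nonsense-mediated decay, the pathway that removes mRNAs with early stop codons. This transcript leaves out exon 4, which has 140 bases at chr3:186784962-186785101 on the plus strand. The exon of the coding transcript EIF4A2-201 and the junction made when exon 3 is joined to exon 5 are shown, from the GENCODE 29 transcripts (GRCh38), because they define the change. In the junction sequence, 30 bases of exon 3 are followed by 83 bases of exon 5 up to the stop codon TGA, in capitals, which the skip brings into frame, with both ends at chr3:186784667-186785965 across the introns.
exon 4: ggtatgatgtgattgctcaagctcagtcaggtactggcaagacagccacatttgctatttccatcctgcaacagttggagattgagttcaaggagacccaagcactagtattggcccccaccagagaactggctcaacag
junction: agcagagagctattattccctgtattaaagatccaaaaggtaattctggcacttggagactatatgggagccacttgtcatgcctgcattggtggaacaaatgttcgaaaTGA
EIF4A2-207 took 11.2, 7.73 and 11.1% of the gene's counts with solvent, against 26.4, 26.6 and 38.2% in starved cells. The shares did not overlap, and the usage of this transcript relative to the gene's others fell by 1.15 on the log2 scale (adjusted p = 0.00879 over transcripts). All 6 annotated transcripts that skip the exon took 11.8%, 9.08% and 12.4% with solvent, against 27.1%, 27.6% and 38.7% starved. With DMA EIF4A2-207 took 5.51, 5.95 and 13.9%, and with C646 6.56, 8.36 and 8.28%, so all 9 refed libraries were below the starved ones. The coding transcript EIF4A2-201 took 14.2, 33.4 and 15.8% with solvent and 28.9, 31.4 and 24.7% starved, which overlapped. The retained-intron transcript EIF4A2-219 took 15.3, 14.1 and 16.8% with solvent against 8.35, 7.65 and 8.11% starved, higher in all 9 refed libraries but not past the threshold between solvent and starved cells (adjusted p = 0.441 over transcripts).

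The uncertainty of assigning reads to transcripts is not in these tests. In this test of transcript division the call of EIF4A2 ended without starved library 1 or 2 (adjusted p = 0.0873 and 0.118) and without solvent library 1 or 3 (0.0840 and 0.123). The calls of EIF3B (adjusted p = 0.0362) and EIF3J (0.0407) ended in 5 and 5 of 6 such fits, and no single transcript of either passed.

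Between DMA and solvent 5 of 51 members were called for transcript division, with 1.89% of genes called: PABPC4 (adjusted p = 0.00439), EIF3J (0.0116), EEF1B2 (0.0128), EIF1 (0.0267) and EEF1D (0.0464). EIF1-204, like EIF1-201 a transcript of EIF1 with no coding annotation, took 7.07, 9.42 and 8.16% of the gene's counts with DMA. With solvent it took 25.3, 27.7 and 16.7%. The groups did not overlap. It took 10.8, 12.3 and 14.4% with C646 and 9.44, 6.25 and 12.8% in starved cells, so the solvent libraries stood above the other 9. EEF1B2-208, annotated for nonsense-mediated decay in a subunit of the eEF1 exchange complex, was listed at 0, 0 and 0.266% with DMA, against 14.1, 11.1 and 7.23% with solvent, and at 5.86, 0.124 and 7.39% in starved cells. With C646 it was at 0.00020, 0.00034 and 1.69%, also below all solvent libraries. PABPC4-205, a coding transcript, took 11.0, 14.0 and 10.9% with DMA, against 32.2, 22.7 and 19.1% with solvent, 14.1, 14.4 and 19.2% with C646 and 18.2, 18.7 and 25.3% in starved cells, both of which overlapped solvent. Each of the 3 was lower in all DMA libraries than in all solvent libraries.

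Leaving out single libraries ended each of these calls. That of PABPC4 ended without solvent library 1 (adjusted p = 0.320) or DMA library 1, 2 or 3 (0.158, 0.0631 and 0.0816), and that of EIF1 without any library other than solvent library 3 (0.0974 to 0.139). That of EEF1B2 ended without solvent library 2 (0.0599) or DMA library 1 or 2 (0.167 and 0.119), that of EIF3J without solvent library 1 or 2 (0.131 and 0.0586), and that of EEF1D without any 1 of the 6 (0.0706 to 0.392). Between C646 and solvent edgeR called 0 of 51 members, with 8 at an unadjusted p under 0.05 and 0.505% of genes called. How many of all genes reached that unadjusted level was not counted.

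**Figure D4:**
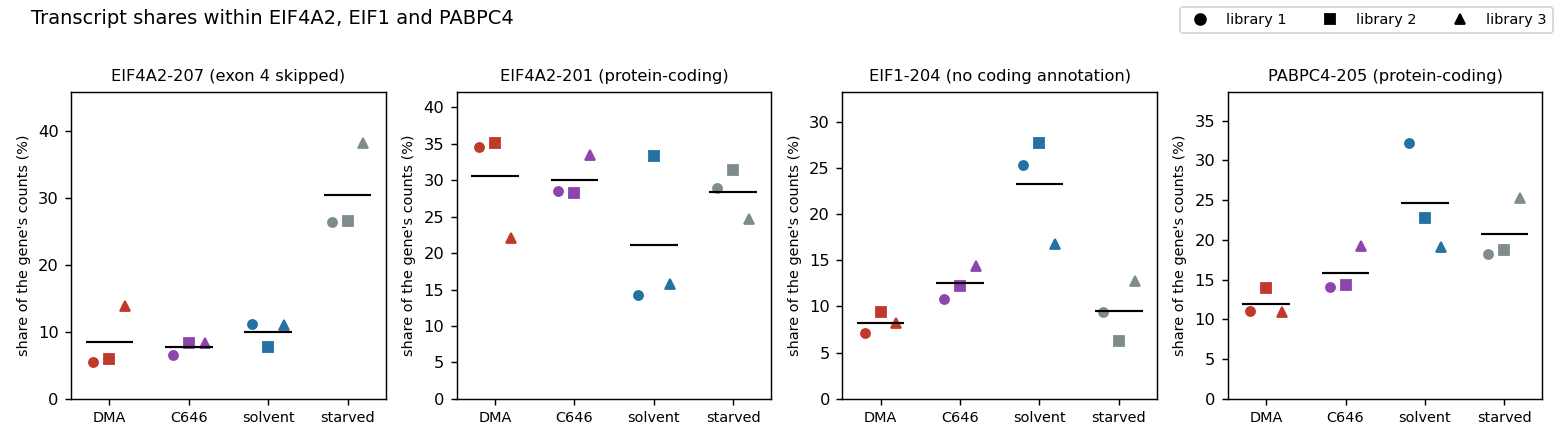
Percent of a gene's expected counts given to 4 transcripts of EIF4A2, EIF1 and PABPC4 in each library for DMA, C646, solvent and starved cells (points, marker shape for the library number), with means of 3 libraries as bars. EIF4A2-207 stood at 26.4% or above in starved cells and at most 13.9% in refed cells, and EIF1-204 was highest with solvent.

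DMA was set against solvent to see what blocking Na+/H+ exchange changes during refeeding. The eEF2 kinase and the subunit-joining factor EIF5B were lower with DMA: 2 of 54 members were called, both lower, with 1.75% of all genes called (1.02% lower). EEF2K (chromosome 16, 22206282 to 22288732, plus strand), which phosphorylates and inhibits eEF2, had 21.7, 21.3 and 18.3 CPM with DMA, against 45.5, 37.4 and 27.6 CPM with solvent. All DMA libraries were lower, and EEF2K fell by 0.85 ± 0.18 (adjusted p = 0.0370), or by 0.67 without solvent library 1 (adjusted p = 0.167). EIF5B had 166, 167 and 150.0 CPM with DMA, against 269, 221 and 197 CPM with solvent. It fell by 0.51 ± 0.12 without overlap (adjusted p = 0.0437), and by 0.38 without solvent library 1 (adjusted p = 0.174), the highest of the 3 solvent libraries. Apart from solvent library 3, leaving out any 1 library ended both calls (adjusted p = 0.0513 to 0.167 for EEF2K, 0.0617 to 0.174 for EIF5B). The calls of EEF2K and EIF5B also ended with spike-in scaling (adjusted p = 0.716 and 0.916), with only the compared groups in the fit (0.0928 and 0.118) and with a transcript length offset (0.0579 and 0.0795).

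Libraries of the same number deviated together in the refed groups, and a fit that blocks on the replicate number called 8 members, 7 lower and 1 higher (10.2% of all genes called, 4.76% higher). Besides EEF2K (-0.83, adjusted p = 0.00334) and EIF5B (-0.50, 0.0133), the block added the eIF3 subunits EIF3J (-0.59, 0.00446) and EIF3B (-0.33, 0.0334), EIF4A2 (-0.70, 0.0108), EIF2B3 (-0.50, 0.0319) and EIF4G2 (-0.32, 0.0307) as lower and EIF4H (0.38, 0.0113) as higher. EIF3J had 88.5, 72.9 and 59.2 CPM with DMA, against 127, 112 and 93.0 CPM with solvent. EIF4H had 601, 655 and 693 CPM with DMA, against 451, 481 and 569 CPM with solvent, and no libraries overlapped in either gene. With the block and without solvent library 1, EEF2K (0.0173) and EIF3J (0.0199) were the 2 members called (3.09% of all genes). In this comparison 4 members were higher and 9 lower without overlap, against 23.2% of all genes. DMA libraries also held a lower mitochondrial share (1.67% to 2.38%) than solvent libraries (2.48% to 3.24%), and its part in these results was not tested.

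C646 was likewise set against solvent, for the inhibition of p300 and CBP. A single member passed, again EIF5B and again lower, with 1.21% of all genes called (0.400% lower). It had 156, 159.9 and 165 CPM with C646, against 269, 221 and 197 CPM with solvent, and fell by 0.52 ± 0.12 (adjusted p = 0.0496) without overlap. Without solvent library 1 it measured -0.39 (adjusted p = 0.205), and the call also ended without solvent library 2 (0.0860) or C646 library 1, 2 or 3 (0.166, 0.124 and 0.0931). It ended too with spike-in scaling (1.000), DESeq2 size factors (0.0552), only the compared groups (0.121) and the length offset (0.0880). The 7 genes of eIF2 and eIF2B all had negative values, as did 41 of 54 members and 7420 of 15263 genes, with a median of -0.28 against 0.011 over all genes. Their median log2 CPM deviation from the mean of the 12 libraries was -0.048, -0.054 and -0.095 in C646 libraries against 0.32, 0.26 and 0.039 in solvent libraries, lowest of these in library 3. Of the 7, 0 were called by edgeR or by DESeq2. By edgeR 3 had an unadjusted p under 0.05, as did 2567 of all 15263 genes tested. EIF2S1 had 125, 126 and 138 CPM with C646, against 179, 150.3 and 163 CPM with solvent, lower without overlap (-0.34 ± 0.11, adjusted p = 0.141, or -0.28 without solvent library 1). EIF2B3 had 22.7, 21.4 and 18.7 CPM with C646, against 33.4, 27.4 and 24.3 CPM with solvent (-0.44 ± 0.16, adjusted p = 0.177, or -0.30 without solvent library 1). Over all members 13 were lower and 1 higher without overlap, against 11.6% and 10.2% of all genes (21.8% in both directions).

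The block called 5 members with C646, 4 lower and 1 higher (7.86% of all genes called, 4.12% higher). These were EIF5B (-0.51, adjusted p = 0.0143), EIF2S1 (-0.34, 0.0417), EIF1AX (-0.40, 0.0319) and EEF2K (-0.52, 0.0264) as lower, and the kinase EIF2AK2 (0.34, 0.0355) as higher. Without solvent library 1 the block called 0 members by edgeR (2.10% of all genes called), with EIF5B at -0.37 (adjusted p = 0.0762). C646 libraries had a mitochondrial share of 2.12% to 2.34%, also below the solvent libraries, whose part was not tested.

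DMA and C646 were set against each other directly. EIF2AK2 (chromosome 2, 37099210 to 37157065, minus strand) was the 1 member of 54 called, with 2.89% of all genes called (0.943% higher and 1.95% lower with DMA). It had 109.7, 118 and 98.8 CPM with DMA, against 142, 159 and 152 CPM with C646 and 124, 121 and 113 CPM with solvent. All C646 libraries were above the others, and EIF2AK2 was lower with DMA by 0.47 ± 0.10 (log2, adjusted p = 0.0256). The call ended without DMA library 1 or 3 (0.0575 and 0.0993) or C646 library 1, 2 or 3 (0.0523, 0.0966 and 0.0656), and with spike-in scaling (1.000), only the compared groups (0.0945) and the length offset (0.0785). With the block, a fit in which no library was left out, 4 members were called (9.81% of all genes, 3.96% higher): EIF2AK2 (0.00534), EIF4A2 (-0.60, 0.0179) and EIF4E3 (-1.19, 0.0486) lower and EIF4H (0.36, 0.0131) higher with DMA. EIF4A2 had 266, 372 and 278 CPM with DMA, against 448, 515 and 415 CPM with C646. EIF4E3 had 1.21, 0.402 and 0.666 CPM with DMA, against 1.57, 1.41 and 2.01 CPM with C646, levels of few reads. Without overlap 7 members were higher and 4 lower with DMA than with C646, against 21.6% of all genes.

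**Figure D5:**
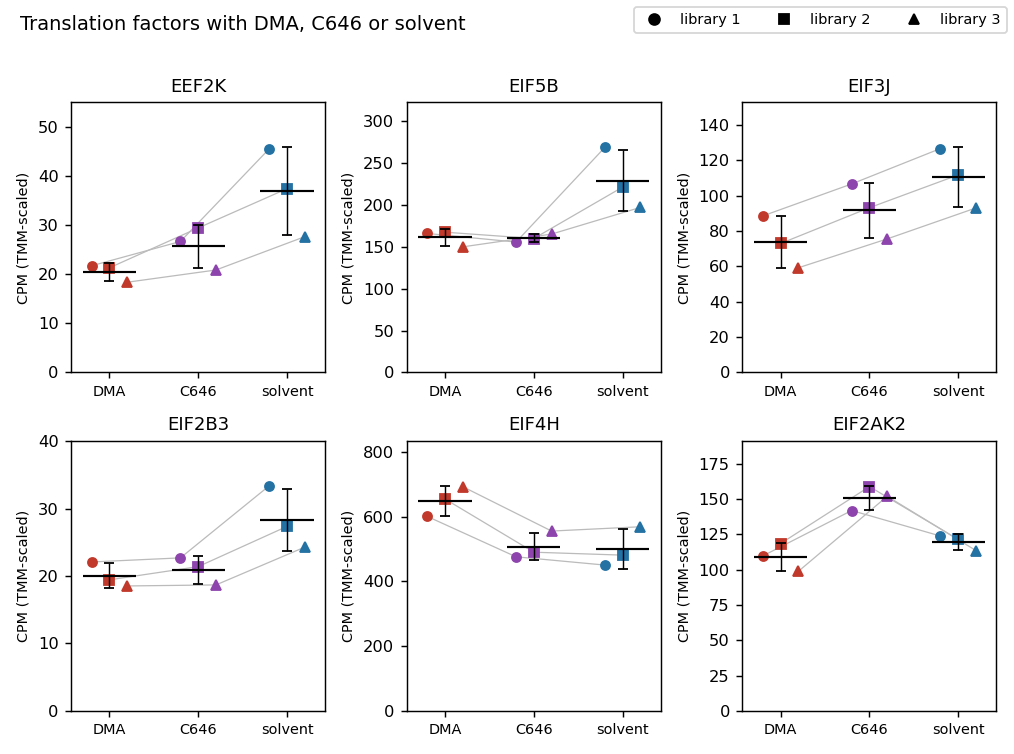
TMM-scaled CPM of 6 members in each library with DMA, C646 and solvent (points, marker shape for the library number, grey lines joining libraries of the same number), with the mean and SD of 3 libraries. EEF2K and EIF5B sat lower in all DMA libraries than in all solvent libraries, EIF4H higher, and EIF2AK2 highest with C646.

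The inhibitor comparisons and the refeeding comparison share the solvent libraries, so a high solvent library moves their values in opposite directions, and they are set side by side as values only. EIF5B measured -0.51 for DMA over solvent, -0.52 for C646 over solvent and 0.84 for solvent over starved. EIF2S1 measured -0.21, -0.34 and 0.75 in the same order, EIF2B3 -0.50, -0.44 and 0.52, and EIF1AX -0.27, -0.40 and 0.44. Among the genes that fell on refeeding, EIF4B measured -0.15, -0.11 and -1.10, PDCD4 0.27, 0.34 and -1.09, and EIF4A2 -0.71, -0.12 and -0.79. EEF2K measured -0.85, -0.52 and -0.17, and was farthest from 0 with DMA.

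Genes next to these factors in the pathway were taken from 2 further lists. Of 15 genes of termination, recycling and reinitiation, 8 rose and 2 fell on refeeding (24.3% of all genes called), with a median of 0.36. ABCE1, the ATPase that splits ribosomes after termination, had 308, 226 and 241 CPM with solvent against 152, 127 and 134 CPM starved and rose by 0.91 ± 0.12 (adjusted p = 0.000262). The release factor GSPT2 (0.81) and NEMF (0.68, uncertain), which acts on stalled large subunits, rose as well. GTPBP2, a GTPase linked to rescue of stalled ribosomes, had 60.0, 60.7 and 50.0 CPM with solvent against 226, 197 and 173 CPM starved and fell by 1.80 ± 0.15 (adjusted p = 1.03e-05). Its relative GTPBP1 fell by 0.62 ± 0.13 on refeeding (adjusted p = 0.00384). With spike-in scaling GTPBP2 stayed past the threshold (-1.19) and GTPBP1 did not (-0.034). With DMA, GTPBP1 had 64.0, 53.7 and 51.1 CPM, against 32.0, 33.3 and 28.9 CPM with C646 and 32.9, 31.3 and 37.0 CPM with solvent, and rose over solvent by 0.74 ± 0.13 (adjusted p = 0.0182) and over C646 by 0.84 ± 0.13 (adjusted p = 0.00507). The call over solvent ended without solvent library 1 or 2 (adjusted p = 0.0888 and 0.0589) or DMA library 2 (0.0756), while that over C646 passed without any 1 of the 6 libraries (0.0108 to 0.0219). Both ended with spike-in scaling (0.295 over solvent and 0.361 over C646).

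Of 24 regulators of initiation and elongation factors, 2 rose and 5 fell on refeeding, with a median of -0.094. PPP1R15A (GADD34), which directs a phosphatase to phosphorylated eIF2, had 103, 146 and 136 CPM with solvent against 354, 596 and 461 CPM starved and fell by 1.87 ± 0.18 (adjusted p = 2.78e-05). PAIP2B, an inhibitor of poly-A binding proteins, fell by 1.22 ± 0.33 (adjusted p = 0.0173) at 1.14 ± 0.287 CPM with solvent against 2.67 ± 0.504 CPM starved. MKNK2, a kinase of eIF4E, fell by 0.90 ± 0.27 (adjusted p = 0.0297), although its groups overlapped. With spike-in scaling the fall of PPP1R15A passed (-1.26), and those of PAIP2B (-0.58) and MKNK2 (-0.18) did not. The calls of PAIP2B, MKNK2, DOHH and PAIP2 each ended without 1 or more single libraries, at adjusted p up to 0.0721, 0.113, 0.144 and 0.138. Of the 2 genes that rose, DOHH (0.82) completes the hypusine of eIF5A and PAIP2 (0.39, uncertain) binds poly-A binding proteins. None of the 24 was called with DMA or with C646 against solvent by edgeR, where 7 and 3 had an unadjusted p under 0.05. Of all 15263 genes tested, 2960 and 2567 had such a p. DESeq2 called 1 with DMA (PPP1R15A), beside 1096 of all genes, and 0 with C646, beside 891 of all genes.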

How the data were processed

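The submitters' processing notes name Trimmomatic 0.36, STAR 2.7.0e and the build GRCh38.p10. The deposited tables give, per the file headers, an expected count, TPM and an effective length (a number of bases, not a level) for each transcript. The program, annotation and strand option behind them are not named in the sources used here. Of 182164 transcripts, 92 were spike-in sequences and 264 matched no GENCODE 29 transcript (0.0923% to 0.146% of a library's counts). Deposited expected counts were summed over the transcripts of each gene and rounded, and deposited TPM were summed for levels.

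After filterByExpr (10 counts at least, 15 in total) and TMM scaling, the 12 libraries were fitted together in edgeR 4.0.16 (R 4.3.3), with robust quasi-likelihood F-tests and Benjamini-Hochberg adjustment over 15263 genes (threshold 0.05). A limit of 3 counts equals 0.104 to 0.201 CPM and covers counting error only. Transcript division was tested with diffSpliceDGE's gene-level F-test on 59656 transcripts. The scripts were tested on simulated data. Alternatives were DESeq2 1.42.0, its size factors, spike-in scaling, other filters, only the compared groups, a transcript length offset, the replicate number as a block and leaving out each library. The block without solvent library 1 was added after seeing the data.

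The replicate numbers pair libraries where every same-number correlation of deviations from the group mean exceeds 0.1. This held for DMA with solvent (0.33, 0.36 and 0.48), C646 with solvent (0.28, 0.38 and 0.37) and DMA with C646 (0.40, 0.28 and 0.48). It also held for starved cells with DMA (0.13, 0.27 and 0.31) and with C646 (0.15, 0.36 and 0.34). Solvent with starved cells missed the limit narrowly, in library 1 (0.0957, 0.33 and 0.18). The members, lists and tests were chosen with earlier results of these data known. Any member could be named. Library values are given for up to 8 called members per direction, the most abundant member of each role group and the paralog pairs, and for the others the text describes. The members called with the block were chosen for that after their values were seen. A gene is uncertain where other genes share over 20% of its 31-base sequences or cover over 20% of its exons.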

Additional observations from a re-analysis of the deposited data

How the results depend on the processing

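For solvent against starved cells the count of 27 called members was 25 to 34 under the other settings except spike-in scaling, which gave 16, and 18 to 24 without 1 library. It was 34 with the replicate block, which called 5451 of 15263 genes. There the numbers miss the limit for pairing, since solvent library 1 and starved library 1 correlate at 0.0957. Every library of both groups still correlates best with its own number in the other (0.0957, 0.33 and 0.18). Of the 27 members, 10 were called in all settings and also without any 1 library. With the fits that leave out a library set aside, 20 were called in all settings but spike-in scaling. Calls also ended for EEF2 and EIF2D with no filter, for EEF1A1 and EIF2B3 with only the compared groups, and for EIF1AX, EIF2B1, EIF2D and PABPC1 with the length offset. Under spike-in scaling EIF2S2 (0.085), EIF3A (0.067), EIF4EBP1 (0.12), PABPC1 (0.14), EIF2D (0.22) and EEF1A1 (0.13) turned positive. Over all genes spike-in scaling shifted the median upward by 0.60, and by 0.22 for DMA and 0.13 for C646 against solvent.

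For DMA against solvent the 2 called members became 8 with DESeq2 (1096 of all genes called) and 8 with the replicate block (1560 genes). They became 0 with spike-in scaling, with only the compared groups and with the length offset, and 0 to 3 without 1 library. For C646 against solvent the 1 called member became 3 with DESeq2 (891 of all genes called) and 5 with the block (1199 genes). The block gave 0 when solvent library 1 was then left out. The count was 0 with DESeq2 size factors, spike-in scaling, only the compared groups and the length offset, and 0 to 1 without 1 library. For DMA against C646 the 1 called member became 4 with the block and 0 with spike-in scaling, only the compared groups and the length offset, and 0 to 1 without 1 library. The causes were not tested. A fit with only the compared groups has fewer samples to estimate the spread. Transcript division called 3, 5 and 0 members in the first 3 comparisons, 3, 4 and 0 with the replicate block, and 0 to 3, 1 to 6 and 0 to 1 without 1 library. With transcripts of at least 1 CPM in 3 libraries it called 3, 3 and 0. Low levels such as those of EIF4E3 limit what the depth can show.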
